A study of Mus musculus with 6 samples.

Results

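The genes described here are 10 markers of the choroid plexus, Ttr, Enpp2, Kl, Folr1, Aqp1, Kcnj13, Kcne2, Clic6, Slc4a5 and Otx2. They were measured in the prefrontal cortex of 3 Nrf2 knockout and 3 wild type male ICR mouse samples, an outbred stock, aged 3 to 4 months. A probe was taken for a gene if its name on the array was that gene's symbol or if its target was a RefSeq transcript of the gene. This gave 22 of the 150305 probes, and the array named 21328 genes in all. Each sample was hybridised alone, in 1 colour, to an Agilent array with probes for coding, long non-coding and circular RNAs. Which part of Nfe2l2, the gene for Nrf2, was deleted is not given in the labels, and neither is whether the samples are different animals. A p-value here thus reflects only how these samples varied, and part of that variation may be technical.

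The choroid plexus is a vascular tissue in the brain's ventricles, covered by an epithelium that secretes the cerebrospinal fluid. Its epithelial cells move sodium, chloride, bicarbonate and water from blood into the ventricle and release carrier proteins and enzymes into the fluid. The tissue is not a part of the prefrontal cortex, although some of these genes, such as Enpp2 in oligodendrocytes and Kl in neurons, are also used by other brain cells. In RNA from whole tissue, fewer cells of a type and less RNA per cell cannot be told apart.

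All values are log2 signals relative to the 75th percentile of the same array, so that 0 is the level of that percentile, and they are given for knockouts 1, 2 and 3 and then for wild types 1, 2 and 3. Probes of a gene are called A, B and C from the brightest to the dimmest, and the level of a probe cannot be set against that of another. A probe was tested if the scanner software called it well above background on all 3 arrays of at least 1 group. Differences are knockout minus wild type on the log2 scale with the standard error (SE) of limma, which fits all 105924 tested probes together, and adjusted p-values are Benjamini-Hochberg values over all of them.

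The probes are 60 bases long, and their first 30 bases are shown for the genes in which the comparison of probes matters. Kcnj13 A, Kl A and Kcne2 A had the lowest p-values, and Kl B and Kcne2 B are the second probes of those genes. The capitals in the Aqp1 pair mark 13 bases of a run of 43 that both probes share, and the Clic6 pair is identical over all 60 bases. The sequences come from the deposited array files and run 5′ to 3′.
Kcnj13 A: tgtatctcatgtttccttgttctcagtgct
Kl A: ggagaatattgccagaacagctcaaaactg
Kl B: tgagtggtcttattgataaccctgatacca
Kcne2 A: gtgtatatgcttcaaaacaccatgttgtgt
Kcne2 B: gttccaagccattctagacccattgcactg
Aqp1 A: ccttgtatctgtctgctCTGTGTATGTTTC
Aqp1 B: CTGTGTATGTTTCtttgcaattgaatttca
Clic6 A: gctcttgtgacattcaaacttggtaaatga
Clic6 B: gctcttgtgacattcaaacttggtaaatga
On build mm9, which the file headers name, Kl B lay at chr5:151795712-151795771, Kcne2 B at chr16:92298155-92298214, Aqp1 B at chr6:55298480-55298539 and Clic6 A at chr16:92541363-92541422. The files give no position for the other 5 probes, and whether any of them lies in a coding or an untranslated part of its transcript was not determined here.

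Of the 10 genes, 9 were measured on all 6 arrays by at least 1 probe, and Otx2 was not. No gene passed an adjusted p of 0.05 at any of its 17 tested probes (0 of 17, against 0.00944% of all tested probes). Kcnj13, Kl and Kcne2 were the lowest by p, each with 1 probe lower in the knockout at an unadjusted limma p under 0.05. That is 17.6% of the members' tested probes, near the 15.1% of all tested probes (8.94% in the lower direction alone). The knockout and wild type arrays did not overlap at 2 of the 17 probes, Kcnj13 A and Kl A, both lower in the knockout. This share of 11.8% compares with 21.6% of all tested probes whose groups did not overlap in either direction and 10.4% that were lower without overlap. With 1 probe per gene, 3 of the 9 genes (33.3%) had an unadjusted limma p under 0.05, and 2 of the 9 (22.2%) were lower without overlap. The shares of the marker lists below are per gene in this way. Those of all tested probes count every probe, also of non-coding and circular RNAs.

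**Figure D1:**
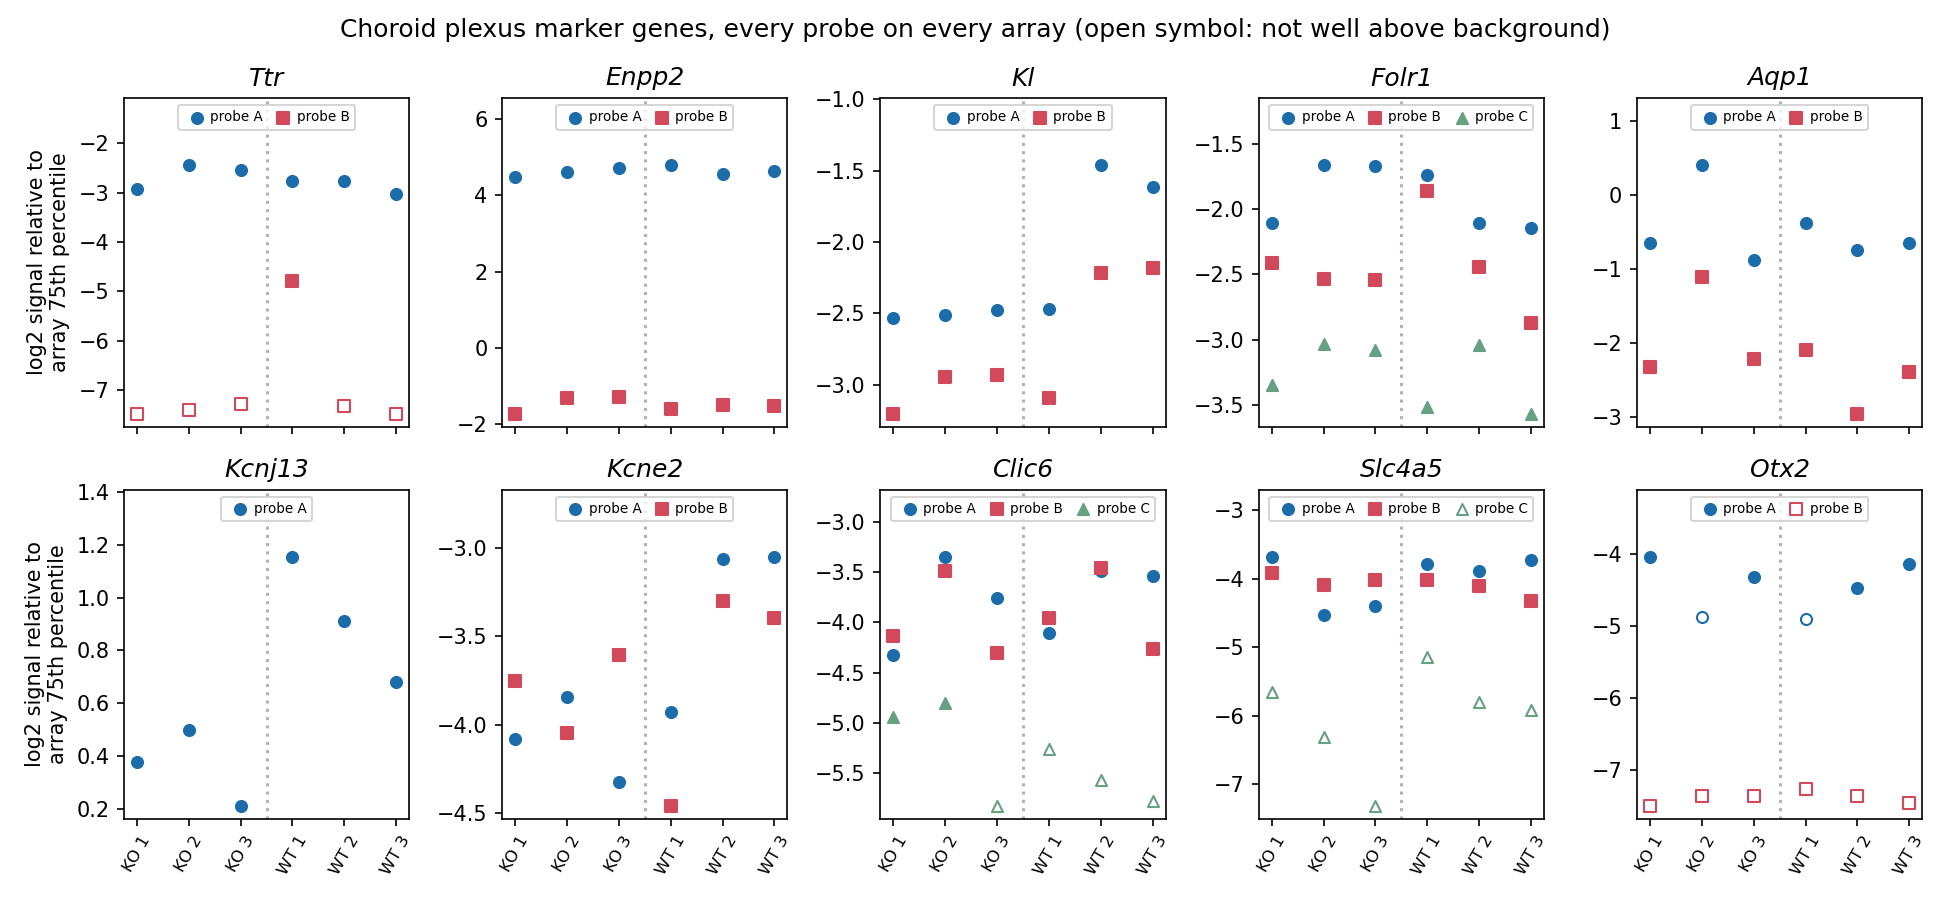
Log2 signal relative to the array's 75th percentile (vertical axes, each with its own range) for every probe of the 10 genes on knockout arrays 1 to 3 and wild type arrays 1 to 3 (horizontal axes); filled symbols are well above background and open symbols are not. Kcnj13 lies lower on all 3 knockout arrays, from 0.21 to 0.50, than on the wild type arrays, from 0.68 to 1.15, while most other genes overlap between the groups.

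The arrays share a feature that touches every comparison. Knockout 1 and all 3 wild type arrays share 1 scan identifier in the file headers, and knockouts 2 and 3 share another. The headers leave the slide number empty, and these sets are read here as slide 1 and slide 2. The median local background was 19 and 18 on slide 2, against 23 to 24 on slide 1. Wild type 1 had 186 spots flagged as outliers, against 13 to 36 on the other arrays. The share of all probes well above background ran from 71.0 to 73.4% per array. Nfe2l2 itself was far lower in the knockout at 3 of its 4 probes. Its probe A gave −3.74, −3.79 and −3.46 in the knockout, against 0.49, 0.39 and 0.35 in wild type, a difference of −4.08 (SE 0.12, limma adjusted p = 0.000613). Probes C and D were well above background on all 3 wild type arrays and on 0 of 3 knockout arrays. Probe B differed by −0.35 (SE 0.19, adjusted p = 0.393).

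Among the secreted proteins, Ttr encodes transthyretin, a carrier of thyroid hormone, and is the classic marker of the choroid plexus epithelium. Ttr A gave −2.92, −2.44 and −2.53 on the knockout arrays, against −2.76, −2.76 and −3.03 on the wild type arrays. The groups overlapped, and the difference was 0.22 (SE 0.16, adjusted p = 0.483). Ttr B was well above background only on wild type 1, at −4.79. It lay between −7.49 and −7.29 on the knockout arrays, against −7.31 and −7.47 on wild types 2 and 3, and was not tested. No array therefore carried a Ttr signal above its 75th percentile at either probe. The lncRNA Gm16090 overlaps the annotated position of Ttr on GRCm38, and its strand relative to Ttr was not determined here.

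Enpp2 encodes autotaxin, the secreted enzyme that makes lysophosphatidic acid from lysophosphatidylcholine, and oligodendrocytes are known to express it as well. Its probe A was the only member probe with a mean more than 1 log2 unit above the 75th percentile, at 4.48, 4.62 and 4.72 in the knockout and 4.79, 4.55 and 4.65 in wild type. The difference was −0.06 (SE 0.11, adjusted p = 0.790), with a 95% interval of −0.32 to 0.21. Probe B gave −1.75, −1.33 and −1.30 in the knockout, against −1.60, −1.49 and −1.52 in wild type, a difference of 0.08 (SE 0.14, adjusted p = 0.778). Enpp2 was thus among the most even of the members, and neither probe separated the groups. The summed linear signal of 10 oligodendrocyte markers, in multiples of the array's 75th percentile, was 249, 290 and 276 in the knockout and 306, 260 and 241 in wild type. It was highest on wild type 1, as was Enpp2 A, but Enpp2 B was −1.60 there, with only knockout 1 lower, at −1.75. The sum was lowest on the wild type array with 241. Enpp2 A was 4.65 on that array, above its 4.55 on the wild type array with a sum of 260. The part of oligodendrocytes in the Enpp2 signal was not tested.

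Enpp2 also hosts 4 of the 5 circular RNAs on the array that lie inside a member gene. These back-spliced loops span 12510 to 27598 bases of chromosome 15, read as GRCm38. All 4 were well above background on all 6 arrays and had positive differences, from 0.08 to 0.33, with adjusted p-values of 0.407 to 0.775. The loop at chr15:54875652-54899374 had the largest difference, with 0.95, 1.47 and 1.70 in the knockout and 1.08, 1.00 and 1.04 in wild type. Knockout 1 lay below all 3 wild type arrays and knockouts 2 and 3 above them. Without knockout 1 this loop passed the threshold (adjusted p = 0.0292), but the remaining knockout arrays are then all on slide 2, and slide and genotype cannot be told apart. With slide as a block, its difference was −0.09, and the differences of the other 3 loops were −0.17, −0.15 and −0.12. The circular RNA of Kl was well above background on 1 knockout array only and was not tested.

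The receptors were Kl and Folr1. Kl encodes klotho, a co-receptor for the hormone FGF23 that is also shed into blood and cerebrospinal fluid. Kl A gave −2.53, −2.51 and −2.48 in the knockout, against −2.47, −1.46 and −1.62 in wild type. The knockout arrays were nearly equal, and wild type 1 lay beside them, far below wild types 2 and 3. The difference was −0.66 (SE 0.26, 95% interval −1.28 to −0.04), with an unadjusted limma p of 0.0409 and an adjusted p of 0.325. Kl B shared no run of more than 5 bases with Kl A and gave the same order of groups, at −3.21, −2.95 and −2.93 in the knockout and −3.09, −2.21 and −2.18 in wild type. Its difference was −0.53 (SE 0.26, adjusted p = 0.360). Without wild type 1, the Kl A difference was −0.97 (adjusted p = 0.113), still short of the threshold. After normexp background correction and quantile normalisation, the differences were −0.32 at Kl A and −0.22 at Kl B.

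Folr1 encodes folate receptor alpha, which carries folate across the choroid plexus epithelium. Folr1 A gave −2.10, −1.66 and −1.67 in the knockout, against −1.74, −2.11 and −2.14 in wild type. Folr1 B gave −2.41, −2.53 and −2.54 in the knockout, against −1.86, −2.44 and −2.87 in wild type. Folr1 C gave −3.35, −3.04 and −3.08 in the knockout, against −3.52, −3.04 and −3.57 in wild type. The groups overlapped at all 3 probes, and the probes did not order the arrays alike. The differences were 0.18 (SE 0.17), −0.10 (SE 0.25) and 0.22 (SE 0.17), with adjusted p-values of 0.586, 0.841 and 0.511.

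Of the genes for water and ion transport, Aqp1 encodes the water channel of the apical epithelial membrane. Aqp1 A gave −0.65, 0.40 and −0.89 in the knockout, against −0.38, −0.75 and −0.66 in wild type. Aqp1 B, which overlaps it by the 43 bases noted above, gave −2.33, −1.12 and −2.22 in the knockout, against −2.10, −2.97 and −2.39 in wild type. Knockout 2 stood more than 1 log2 unit above the other knockout arrays at both probes, and the groups overlapped at both. The differences were 0.22 (SE 0.33, adjusted p = 0.742) for A and 0.60 (SE 0.37, adjusted p = 0.434) for B. Without knockout 2 they were −0.17 and 0.21, so this array set the direction at A and moved the size at B by more than 1.5 times.

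Kcnj13 encodes the inwardly rectifying potassium channel Kir7.1, which is found in ion-transporting epithelia such as those of the choroid plexus and the retinal pigment layer. Its only probe gave 0.38, 0.50 and 0.21 in the knockout, against 1.15, 0.91 and 0.68 in wild type. All 3 knockout arrays lay below all 3 wild type arrays. The difference was −0.55 (SE 0.15, 95% interval −0.91 to −0.20), 1.47-fold lower, with an unadjusted limma p of 0.00819 and an adjusted p of 0.307. With slide as a block it was −0.54 (adjusted p = 0.882). On GRCm38, Kcnj13 at chr1:87384577-87394729 lies wholly inside Gigyf2 at chr1:87326931-87450810, on the opposite strand. The 4 probes of Gigyf2, which encodes a regulator of translation, differed by 0.12, −0.21, 0.03 and 0.08, with groups that overlapped at each.

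Kcne2 encodes an accessory subunit of potassium channels that is abundant in the choroid plexus and in the acid-secreting cells of the stomach. Kcne2 A gave −4.08, −3.85 and −4.32 in the knockout, against −3.93, −3.06 and −3.05 in wild type. Wild types 2 and 3 were high, while wild type 1 lay among the knockout arrays. The difference was −0.74 (SE 0.26), 1.67-fold lower, with an unadjusted limma p of 0.0296 and an adjusted p of 0.315. After normexp background correction and quantile normalisation it was −0.21. Kcne2 B gave −3.75, −4.05 and −3.61 in the knockout, against −4.46, −3.30 and −3.40 in wild type. Here wild type 1 was the lowest of the 6 arrays, and the difference was −0.08 (SE 0.32, adjusted p = 0.907). The same arrays, wild types 2 and 3, were highest at both probes, but the 2 probes gave different sizes.

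Clic6 belongs to the chloride intracellular channel family. Clic6 A gave −4.32, −3.35 and −3.75 in the knockout, against −4.11, −3.49 and −3.54 in wild type, a difference of −0.09 (SE 0.28, adjusted p = 0.874). Clic6 B, with the same bases, gave −4.13, −3.48 and −4.30 in the knockout, against −3.95, −3.46 and −4.26 in wild type, a difference of −0.08 (SE 0.28, adjusted p = 0.892). Since A and B carry 1 sequence, their gap on an array shows the error of a spot at this low level. A minus B was −0.19, 0.14 and 0.55 on the knockout arrays and −0.15, −0.03 and 0.72 on the wild type arrays, the largest gaps being on knockout 3 and wild type 3. Clic6 C was well above background on 2 knockout arrays and 0 wild type arrays, at −4.95, −4.81 and −5.83 in the knockout, against −5.27, −5.57 and −5.78 in wild type, and was not tested.

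**Figure D2:**
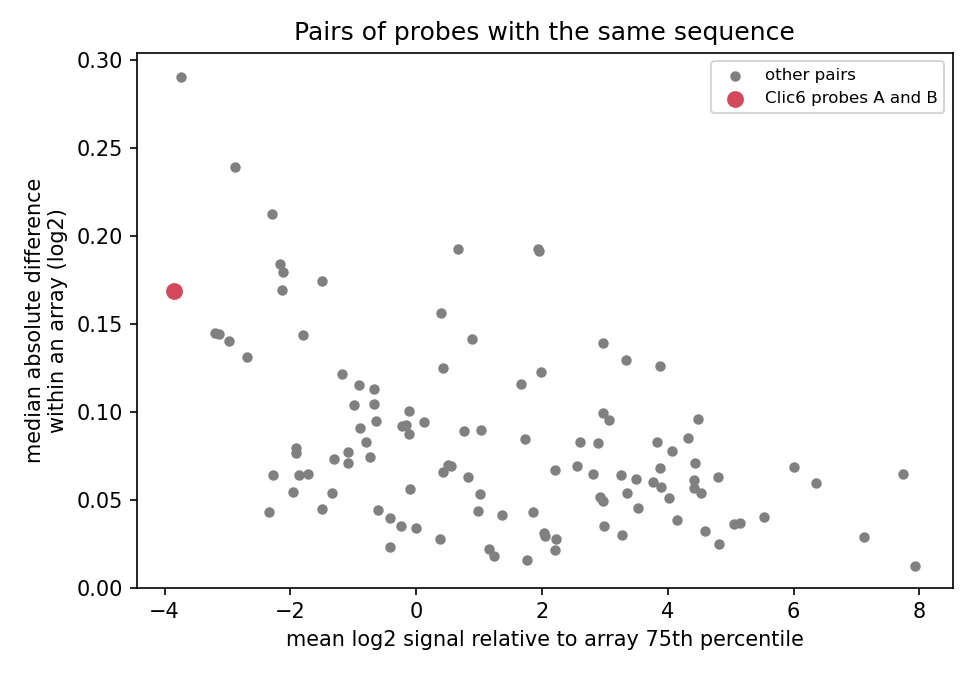
Median absolute log2 difference within an array (vertical axis) against the mean log2 signal relative to the array's 75th percentile (horizontal axis) for 114 pairs of probes with the same sequence, both well above background on all 6 arrays. The Clic6 pair, at a level of −3.85, differed by a median of 0.169, against a median of 0.0691 over all 114 pairs.

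The Clic6 pair led to a look at all pairs of the same sequence on the array, chosen after its values were seen. Each pair was summarised by its median absolute gap over the 6 arrays. Over 13 pairs with a mean level below −2 the median of these values was 0.169, which is the value of the Clic6 pair itself. The highest of the 13 values was 0.290, while the gap of the Clic6 pair reached 0.72 on a single array. Over 55 pairs between −2 and 2 the median was 0.0769, and over 46 pairs above 2 it was 0.0598, as the plot of same-sequence pairs shows. Ttr, Kcne2, Clic6, Slc4a5 and the untested Otx2 had means below −2 at every probe in both groups, the range with the widest gaps.

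Slc4a5 encodes a sodium bicarbonate cotransporter, NBCe2, that takes part in the secretion of cerebrospinal fluid. Slc4a5 A gave −3.68, −4.53 and −4.40 in the knockout, against −3.79, −3.88 and −3.73 in wild type. Knockout 1 was the highest of the 6 arrays, and knockouts 2 and 3, on the other slide, were the lowest. The difference was −0.41 (SE 0.22, adjusted p = 0.393). Without knockout 1 it was −0.67 (adjusted p = 0.0134), the only call at a member probe under any setting tried, and slide and genotype cannot be told apart there. With slide as a block it turned to 0.11. Slc4a5 B gave −3.92, −4.09 and −4.02 in the knockout, against −4.02, −4.11 and −4.33 in wild type, a difference of 0.15 (SE 0.11, adjusted p = 0.514). Slc4a5 C was well above background on 0 of 6 arrays.

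Otx2 encodes the homeodomain transcription factor that the choroid plexus needs for its formation and upkeep. Otx2 A was well above background on knockouts 1 and 3 and on wild types 2 and 3. It gave −4.04, −4.87 and −4.32 in the knockout, against −4.90, −4.46 and −4.13 in wild type, and the groups overlapped. Otx2 B was well above background on 0 of 6 arrays, and its value on each was the surrogate that the software writes for signals too low to measure. Neither probe was therefore well above background on all 3 arrays of a group, and Otx2 was not tested.

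**Figure D3:**
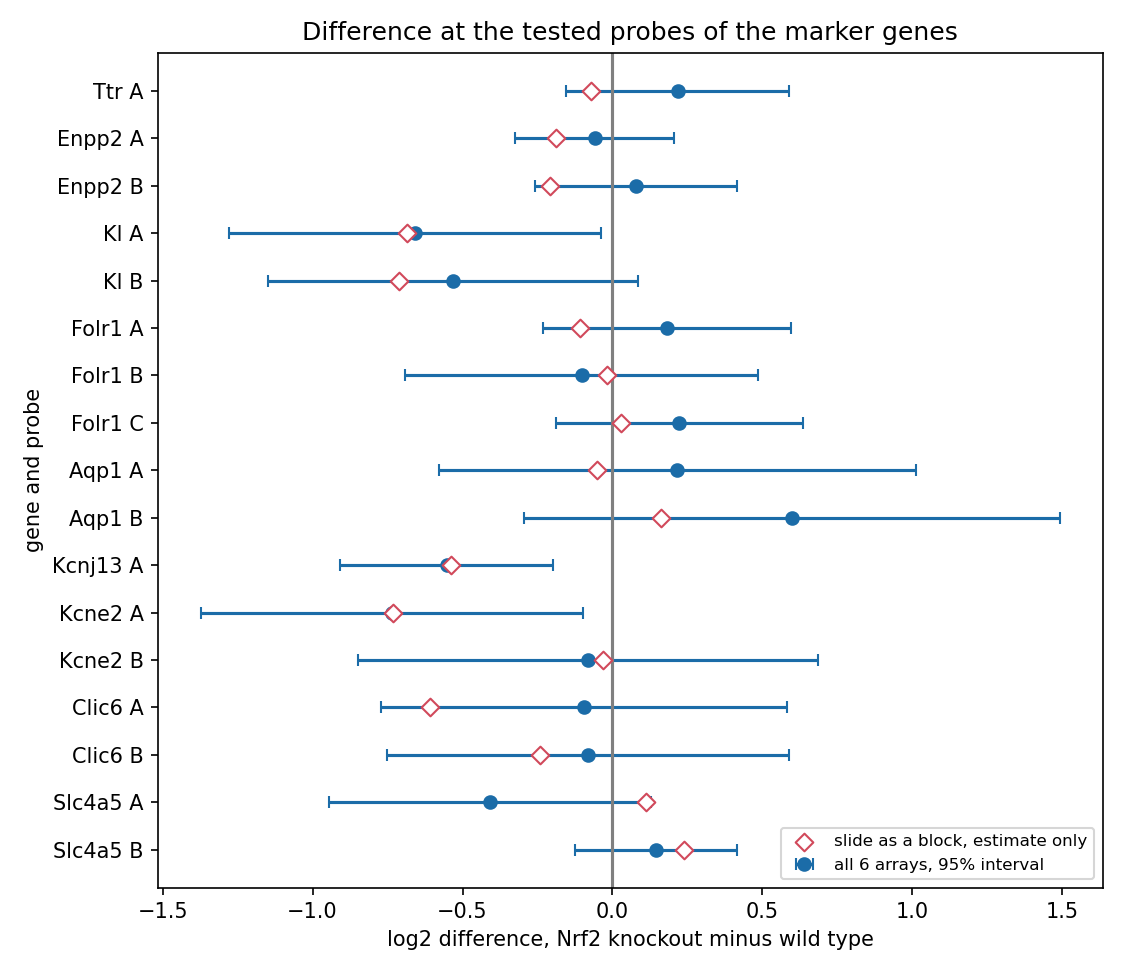
Log2 difference, Nrf2 knockout minus wild type (horizontal axis), at the 17 tested probes (rows); blue points with bars are the fit over all 6 arrays with its 95% interval, and open red diamonds are the estimates with slide as a block. The intervals of Kcnj13 A, Kl A and Kcne2 A lie below 0 before adjustment, and the diamonds change side of 0 for Ttr A, Enpp2 B, Folr1 A, Aqp1 A and Slc4a5 A.

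Taking the brightest tested probe of each of the 9 genes, 6 were lower and 3 higher in the knockout, with a median difference of −0.09, or −0.19 with slide as a block. Over all 105924 tested probes the median was 0.03, and over 18072 named genes, with 1 probe each, it was −0.01. Of these named genes, 51.3% were lower. The median SE of the members' differences was 0.25, against 0.13 over all tested probes. The SD over all 6 arrays had a median of 0.37 at the members' probes, against 0.18 over all tested probes, so the members varied more between arrays than the typical probe. The width of the 95% intervals differed between probes, from −0.32 to 0.21 at Enpp2 A to −0.30 to 1.49 at Aqp1 B.

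Most members did not follow Ttr A closely across the 6 arrays. Likeness was measured as the root mean square difference between centred 6-array profiles, relative to Ttr A, over 18071 other named genes. Folr1, at 0.11, ranked number 298 in closeness to Ttr. Enpp2 followed at 0.20 with rank 6440, and the remaining 6 members lay between 0.33 and 0.62, at ranks of 13972 and beyond. The 8 genes most like Ttr A were Mrgpra3, Olfr156, Prima1, Olfr1215, Ccar2, Arg2, Cd27 and Notch3, at 0.023 to 0.051. With only 6 arrays, a profile this close to Ttr A says little about what a gene has in common with Ttr. The measure also grows with a gene's own spread, and the SD over the arrays was 0.22 at Ttr A and 0.54 at Kcne2 A. Members other than Ttr were not compared with one another by it.

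A further 48 genes known from the choroid plexus epithelium were examined, of which 44 had a tested probe. Which cells of the tissue their signal came from was not determined here. No gene passed the threshold (0 of 44), and the median difference was −0.17. In the knockout 14 were higher and 30 lower, where 51.3% of all named genes were lower. The unadjusted limma p was under 0.05 for 13 genes, 29.5% of those tested, against 15.1% of all tested probes. The groups did not overlap for 11 lower and 5 higher genes, 25.0% and 11.4% of those tested, against 10.4% and 11.1% of all tested probes. Of the 44, Tmem72, Steap1, Krt18 and Lrp2 were well above background on all 3 wild type arrays but on fewer knockout arrays. They entered the test only through the group in which they are high, so the filter favours their lower values. Among the other 40, 14 were higher and 26 lower, the median was −0.14, and 11 (27.5%) had an unadjusted limma p under 0.05. The tight junction protein gene Cldn2, Lmx1a, Pon1 and Cdh3 had no tested probe.

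Stra6 and Krt8 were among the largest differences of this list. Stra6, the membrane receptor for retinol uptake, gave 2.60, 1.11 and 0.75 in the knockout, against 3.06, 2.82 and 2.70 in wild type at its brightest probe. The difference was −1.37 (SE 0.46, adjusted p = 0.310), and −0.57 at its second probe. Krt8, a keratin of simple epithelia, gave 1.81, 0.36 and 0.67 in the knockout, against 2.23, 2.40 and 2.17 in wild type. Its difference was −1.32 (SE 0.36, adjusted p = 0.307), but 0.12 at its second probe. At these brightest probes knockout 1 lay nearer to the wild type arrays than knockouts 2 and 3 did. With slide as a block the differences there were −0.26 for Stra6 and −0.46 for Krt8. At the second probes, slide as a block gave −0.61 for Stra6 and 0.39 for Krt8.

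Of the other large differences, Calml4 differed by −0.91, the endocytic receptor Lrp2 by −0.75, the monoamine transporter Slc29a4 by 0.69, Steap1 by −0.68 and the zinc transporter Slc39a4 by −0.61. Slc29a4 had 2 tested probes, both with positive differences, and the values of Lrp2 and Steap1 carry the limit of the filter given above. Among the established markers, the prolactin receptor Prlr differed by 0.35, Sostdc1 by −0.33, Tmem72, with the same limit, by −0.45, the serotonin receptor Htr2c by −0.14, Igfbp2 by −0.14 and the ion channel Trpm3 by −0.20. A second tested probe had the opposite sign for Sostdc1, at 0.14, and for Igfbp2, at 0.02. None of these 13 named genes passed the threshold.

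Without knockout 1, 7 of the 44 genes passed, namely Slc29a4, F5, Steap1, Krt18, Krt8, Stra6 and Lrp2, of which Steap1, Krt18 and Lrp2 had entered the test only through wild type. In that fit 13558 of all 105924 tested probes passed, against 10 with all arrays, so calls were common in it beyond this list. Slide and genotype cannot be told apart in it.

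**Figure D4:**
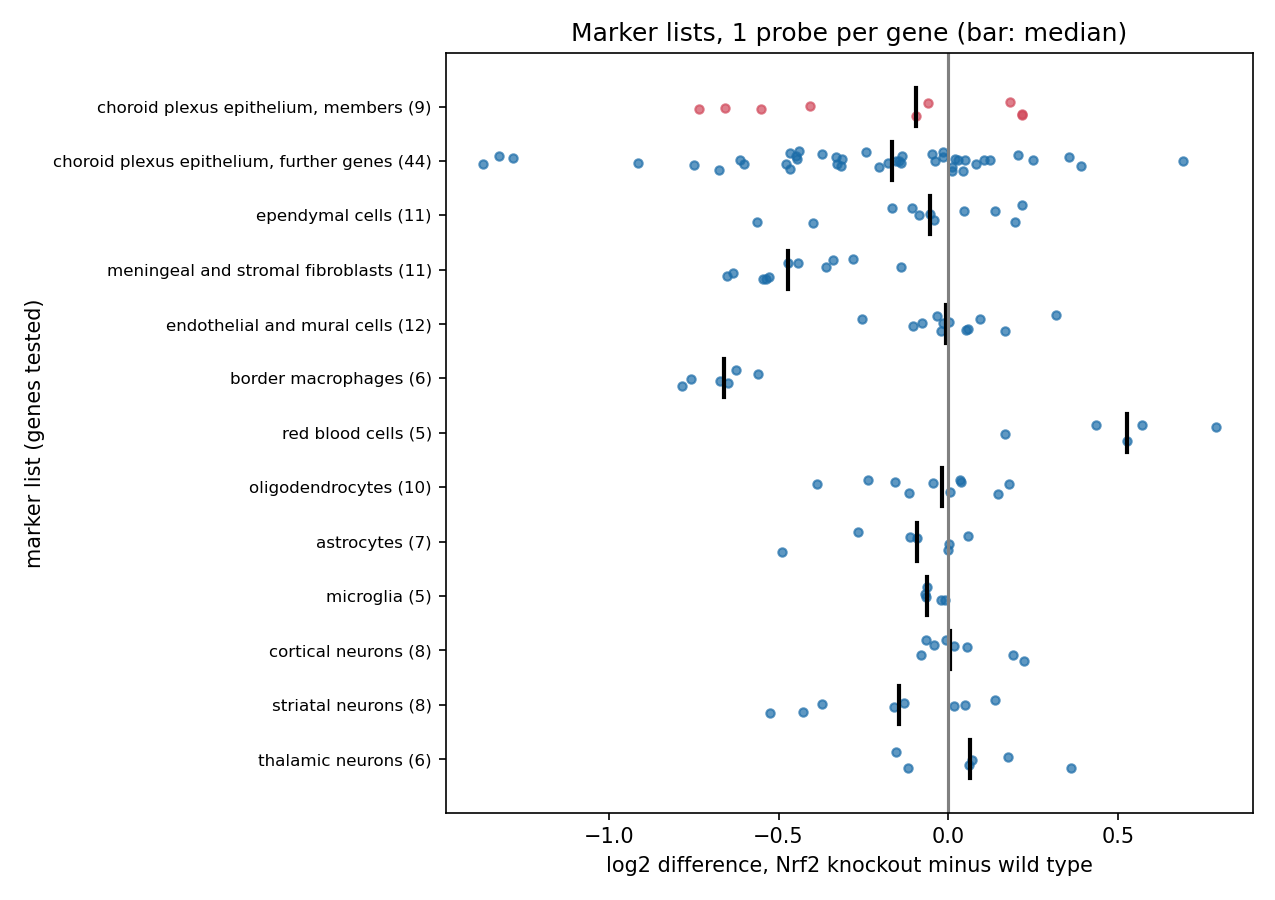
Log2 difference, Nrf2 knockout minus wild type (horizontal axis), for each tested gene of the choroid plexus markers and of 12 further marker lists (rows), with 1 probe per gene and a bar at each list's median. The medians are −0.09 for the members, −0.17 for the further choroid plexus genes, −0.47 for meningeal and stromal fibroblasts, −0.66 for border macrophages and 0.53 for red blood cells.

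Markers of other cells at the brain's borders had larger median differences than the members. All 11 genes of meningeal and stromal fibroblasts were lower in the knockout, as 51.3% of all named genes were. The median of these 11 was −0.47 (−0.64 with slide as a block), as the plot of marker lists shows. Their summed linear signal was 35.6, 38.9 and 44.6 in the knockout, against 65.0, 54.9 and 46.1 in wild type. The largest differences were in Ogn, a proteoglycan of the matrix, at −0.65, and in Aldh1a2, an enzyme of retinoic acid synthesis, at −0.64. All 6 markers of border macrophages were lower without overlap, as 10.4% of all tested probes were, with a median of −0.66 (−0.93 with slide as a block), led by the scavenger receptor Cd163 at −0.78 and Lyve1 at −0.76. Their sums were 2.61, 3.00 and 3.79 in the knockout, against 4.55, 5.58 and 4.57 in wild type.

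All 5 red blood cell genes were higher in the knockout, with a median of 0.53 (0.30 with slide as a block), among them the globin gene Hbb-bt at 0.79 and Alas2, which makes the first intermediate of haem, at 0.57. Their sums were 839, 991 and 977 in the knockout, against 625, 811 and 631 in wild type. None of these genes passed the adjusted threshold. Fibroblast sums were highest on wild type 1. Among the wild type arrays, Kl A and Kcne2 A were lowest on it, while Kcnj13 A was highest on it, at 1.15. The part of these cells in the members' differences was not tested.

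The other lists lay closer to 0. Ependymal cells, the ciliated neighbours of the choroid plexus, had a median of −0.05, with Hydin at −0.56 and Tmem212 at −0.40. The medians were −0.01 for endothelial and mural cells, with Acta2 at 0.32 and Plvap at −0.25, −0.02 for oligodendrocytes, with Opalin at −0.39 and Cldn11 at −0.24, −0.09 for astrocytes, with Gfap at −0.49 and Gjb6 at −0.27, and −0.06 for microglia, with Csf1r at −0.07. Cortical neurons had a median of 0.01, with Rbfox3 at 0.19. The neurons of neighbouring regions had medians of −0.15 for the striatum, with Adora2a at −0.53 and Drd2 at −0.43, and 0.07 for the thalamus, with Ntng1 at 0.36 and Slc17a6 at 0.18. Of the 89 genes tested in these 11 lists, none passed the threshold, and 24 (27.0%) had an unadjusted limma p under 0.05, against 15.1% of all tested probes. The values of these lists are of the brightest tested probe of each gene, so these shares are of unlike sets. At least 1 further tested probe had the opposite sign for Hydin, Acta2, Plvap, Gjb6, Csf1r and Adora2a, and at Adora2a C the knockout was higher without overlap, by 0.45 (adjusted p = 0.307). With slide as a block the medians were −0.16 for ependymal cells, −0.05 for endothelial and mural cells, −0.10 for oligodendrocytes, −0.27 for astrocytes, −0.11 for microglia and −0.21 for the striatum, and that of the thalamus turned to −0.04.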

How the data were processed

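The deposited scanner files give linear intensity values per spot. Agilent Feature Extraction 12.0.3.1 produced them, per the file headers, although the submitters' processing notes list version 10.7, with limma. The headers also record that background was subtracted, that trends were removed and that a surrogate stands in for signals too low to measure. A log2 table deposited by the authors tracked the scanner values (r of at least 0.99986 over 150305 probes on each array). How it was made is not stated in the labels, and it was used only as an alternative.

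Each processed signal was taken to log2 and set relative to the array's 75th percentile. The 4974 control spots were dropped, and a spot with an outlier flag counted as missing and as not well above background. No spot was saturated (0 on each array). Of 150305 probes, 105924 were well above background on all 3 arrays of at least 1 group and were tested, and the 3 arrays per group limit the precision. The test was limma 3.58.1 under R 4.3.3 (lmFit, then eBayes, two-sided, with no covariate), with p-values adjusted by Benjamini-Hochberg across every tested probe and called under 0.05. The fit was tested on simulated data. Levels of lists use the tested probe of the highest mean for each gene. Positions are on mm9 for Agilent's own probes per the file headers and on GRCm38 from a RefSeq table for genes. The positions in the names of circular RNAs were read as GRCm38, since 97.4% fell within coding genes there, and 35.9% did when moved by 1 Mb.

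The members and lists were chosen with earlier results of these data known. Named were all members at every probe, Nfe2l2, the 8 largest differences and 7 established markers of the further choroid plexus genes together with any past the threshold, the 2 largest of each other list, and the 8 genes with profiles most like Ttr A; a few genes that this rule names are not reported here. The alternatives were normexp background correction with an offset of 50 and quantile normalisation, quantile normalisation alone, the authors' table, no filter or a filter on all 6 arrays, the mean of a gene's tested probes, slide as a block, slide 1 alone, the replicate number as a block, and leaving out each array.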

Additional observations from a re-analysis of the deposited data

How the results depend on the processing

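None of the 17 tested member probes passed the threshold under any of the 14 alternatives, except Slc4a5 A without knockout 1, so that leaving out 1 array gave 0 to 1 probes past it. The median member difference of −0.09 kept its sign except without knockout 1, and ranged from −0.29 (without wild type 1) to 0.0057 when 1 array was left out; without knockout 2 it was −0.24. Leaving out 1 array gave 0 to 7 of the further choroid plexus genes, 0 to 7 genes of the other lists, 0 to 1 circular RNAs of members, and 5 to 13558 of all tested probes, against 10 with all arrays (50 without wild type 1). All tested probes past the threshold numbered 4 with a filter on all 6 arrays and 4 on slide 1 alone. Same-numbered samples had correlations of −0.01, −0.05 and 0.04 between their deviations from the group means. These values show no pairing by number, but with 3 arrays per group they cannot exclude it. The replicate block gave 2 probes past the threshold among all those tested, 0 of them members. With slide as a block, and on slide 1 alone, differences turned to −0.071 at Ttr A, −0.21 at Enpp2 B, −0.11 at Folr1 A, −0.053 at Aqp1 A, 0.11 at Slc4a5 A, 0.11 at Steap1, 0.016 at Tmem72 and −0.25 at Slc17a6. Both settings rest on knockout 1. With normexp they were 0.0083 at Kcne2 B, 0.015 at Clic6 A and 0.041 at Clic6 B. It also made differences more than 1.5 times smaller, at 0.094 for Ttr A, −0.32 for Kl A, −0.22 for Kl B, −0.023 for Folr1 B, 0.10 for Folr1 C, 0.33 for Aqp1 B, −0.21 for Kcne2 A, −0.064 for Slc4a5 A, 0.046 for Slc4a5 B, −0.25 for Calml4, −0.11 for Lrp2 and Steap1, 0.40 for Slc29a4, −0.20 for Slc39a4, −0.12 for Sostdc1, −0.073 for Tmem72 and −0.11 for Trpm3. Leaving out 1 array turned the sign of 9 differences at genes, which ranged from −0.12 to 0.0057 at Enpp2 A, −0.00060 to 0.22 at Enpp2 B, −0.34 to 0.16 at Folr1 B, −0.17 to 0.47 at Aqp1 A, −0.45 to 0.13 at Kcne2 B, −0.32 to 0.16 at Clic6 A, −0.33 to 0.13 at Clic6 B, −0.28 to 0.023 at Igfbp2 and −0.064 to 0.39 at Slc17a6. Without knockout 3, the loops of Enpp2 at chr15:54897681-54910190 and chr15:54897681-54919698 turned to −0.0080 and −0.034. The cause of these changes was not tested. Of 238 repeats of the member probe results, 212 kept direction and side of the threshold. Signals near background limit Ttr B, Clic6 C, Slc4a5 C and both probes of Otx2.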
